A study of Mus musculus with 31 samples.

Results

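The genes of fructose uptake and breakdown were followed in the liver of 31 male C57BL6/J mice. They are Slc2a5 and Slc2a8, which encode transporters, Khk, Tkfc and Glyctk, which encode the enzymes that break fructose down, and Akr1b3 and Sord, which encode the polyol pathway that makes fructose from glucose. The members were all probes on the array carrying one of these 7 gene names. There were 12 such probes of 56605 on the array, and 11 of them, covering all 7 genes, were among the 36059 probes kept for analysis. Of the 4 groups, 7 mice were total ChREBP-KO, which are Mlxipl-null and lack ChREBPα and ChREBPβ, and 8 were their WT littermates. The other line gave 8 ChREBPβ-deficient mice, made by CRISPR/Cas9 deletion of the exon specific to that isoform, and 8 of their WT littermates. Both deficiencies were present in every tissue, so the liver was not the only organ affected. All mice, controls included, ate a regular diet, went without food for 24 hours and then had food again for 18 hours, with drinking water that contained 20% glucose. No fasted group was analysed here, and the age of the mice is not given in the sources used here. Each mouse had its own one-color Agilent array, which measures each transcript as the fluorescence of labeled RNA captured by a short DNA probe.

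ChREBP is a transcription factor that responds to sugar metabolites, and with its partner MLX it binds carbohydrate response elements near genes of sugar use and fat synthesis. Fructose enters cells through transporters of the GLUT family, is phosphorylated by ketohexokinase (Khk), and its cleavage yields glyceraldehyde that triokinase (Tkfc) phosphorylates for entry into glycolysis. Aldose reductase (Akr1b3) and sorbitol dehydrogenase (Sord) convert glucose to sorbitol and then to fructose inside the cell. The liver is the main organ of fructose breakdown together with the small intestine, where the transporter encoded by Slc2a5 (GLUT5) is best known.

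Mlxipl, the gene disrupted in both lines, had differences of -1.16 on the log2 scale after total loss and -0.45 after loss of ChREBPβ for probe A_55_P2119957 (limma adjusted p = 8.05e-13 and 0.0152). Its probe A_55_P2728555 gave -0.59 and -0.46 and passed after total loss only, and probe A_55_P2045158 passed in neither line. The arrays lay on 15 slides and were scanned on 2 days, each of which held mice of all 4 groups. On single arrays, 34131 to 38612 spots passed the quality criteria. All 8 hepatocyte markers were measured, and their summed signal ranged over 20.77 to 20.91 on the log2 scale in the 31 mice. The Alb probe in that sum read 18.956 on every array, the top value that quantile normalization makes equal. The sum could therefore vary little, and it does not show that hepatocyte content was equal. In the total line, 4 arrays were set apart by high signal of Vil1 or Cela3b alone. Below they are called the 4 arrays with signal of other tissues. Total ChREBP-KO replicate 5 had a log2 signal of 10.66 for Vil1, against 4.93 to 6.93 on the other 30 arrays. Vil1 encodes villin of the intestinal brush border. The same mouse had the highest signal of Cdx1, another intestinal marker, at 7.66. Its Fabp2 and Apoa4, also on the intestinal list, read 15.17 and 13.28, within the range of the other 30 arrays. It also had the highest Krt19, at 11.03, and Epcam, at 8.79, which were listed as bile duct markers. The tissue behind this signal was not tested. WT replicates 2, 7 and 8 had log2 signals of 10.41, 8.49 and 8.81 for the pancreatic elastase gene Cela3b, against 5.09 to 5.58 in the other 12 mice of that line. Values without these 4 arrays are given beside the results of the total line. Other listed markers also varied widely. Cfd, an adipocyte marker, ran from 4.59 to 12.95 over the 31 mice. Cela2a, a pancreatic marker, read 10.49, 10.70 and 10.75 in total ChREBP-KO replicates 2, 6 and 8, which stayed in. In the β line it read 7.45 to 8.84. The arrays kept are therefore not shown to be free of other tissues. In bulk tissue, fewer cells of a type and less RNA per cell cannot be told apart.

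The sequences shown first are those of the enzymes with the largest differences. Khk and Tkfc were each read by 2 probes of 60 bases, and the opening 30 bases of each are given because the probe pairs behaved differently.
Khk A_52_P72434: tgcgtctctgtatacctatctcctctctgc
Khk A_55_P2168643: atgtggtccttcagaccgagggctccatcc
Tkfc A_51_P279183: ctcagatcttatccaccccagtctctaact
Tkfc A_55_P2734857: ggctggagtagggcttggtggcatttttcc
The array annotation places them on mouse build mm9. Khk probe A_52_P72434 lies at chr5:31233555-31233614 and probe A_55_P2168643 at chr5:31229105-31229164, both on the plus strand, and the first lists a RefSeq mRNA of Khk whereas the second lists, from RefSeq, predicted transcripts only. Tkfc probe A_51_P279183 lies at chr19:10666826-10666885 on the minus strand and lists a RefSeq mRNA of Tkfc. Tkfc probe A_55_P2734857 lies at chr19:10662281-10662340 on the same strand and lists a cDNA clone only. The exons and untranslated regions of that build were not assigned here.

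The DNA upstream of the start of both genes is shown because their mRNA levels moved together across mice. The 250 bases before each gene's start come from RefSeq (GRCm38.p6), with the palindrome CACGTG, the core of an E-box, in capitals.
Khk, chr5:30921309-30921558, plus strand: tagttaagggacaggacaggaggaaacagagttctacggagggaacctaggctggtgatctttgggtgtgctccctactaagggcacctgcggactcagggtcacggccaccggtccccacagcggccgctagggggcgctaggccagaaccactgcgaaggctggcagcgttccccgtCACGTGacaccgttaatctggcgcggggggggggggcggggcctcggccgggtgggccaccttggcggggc
Tkfc, chr19:10604259-10604508, minus strand: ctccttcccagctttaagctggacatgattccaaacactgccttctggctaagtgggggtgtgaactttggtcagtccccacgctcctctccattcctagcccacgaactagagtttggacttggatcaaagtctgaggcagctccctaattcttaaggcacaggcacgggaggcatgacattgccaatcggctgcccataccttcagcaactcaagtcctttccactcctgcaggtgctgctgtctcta
The Khk window held CACGTG once, starting 71 bases upstream of the gene's start, and the Tkfc window did not hold it on either strand. Promoter entries were found for 6 of the 7 genes, and none of the other 4 windows held CACGTG. Among 32851 windows of the same length, 6.02% held it. The carbohydrate response element, which joins a pair of E-box-like motifs with a spacer, matched on either strand none of the 6 windows and 0.0974% of all windows. These letters describe the windows and do not show binding.

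Loss of both ChREBP isoforms split the 7 genes into 3 sets. Khk at both probes and Tkfc at 1 of its 2 probes fell, with every total ChREBP-KO mouse below every WT littermate at those probes, and Slc2a5 fell by less. Sord and Akr1b3 rose, while Slc2a8 and Glyctk did not pass the test. Of the 11 probes, 4 were lower and 4 were higher at a limma adjusted p under 0.05, and 3 passed in neither direction. Over all 36059 probes, 29.1% passed this test, 14.5% higher and 14.6% lower. The groups did not overlap for 5 of the 11 probes, with 2 higher and 3 lower, against 7.4% of all probes, 3.26% higher and 4.14% lower. The median difference was -0.04 on the log2 scale over the 11 probes and 0.01 over all probes.

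**Figure D1:**
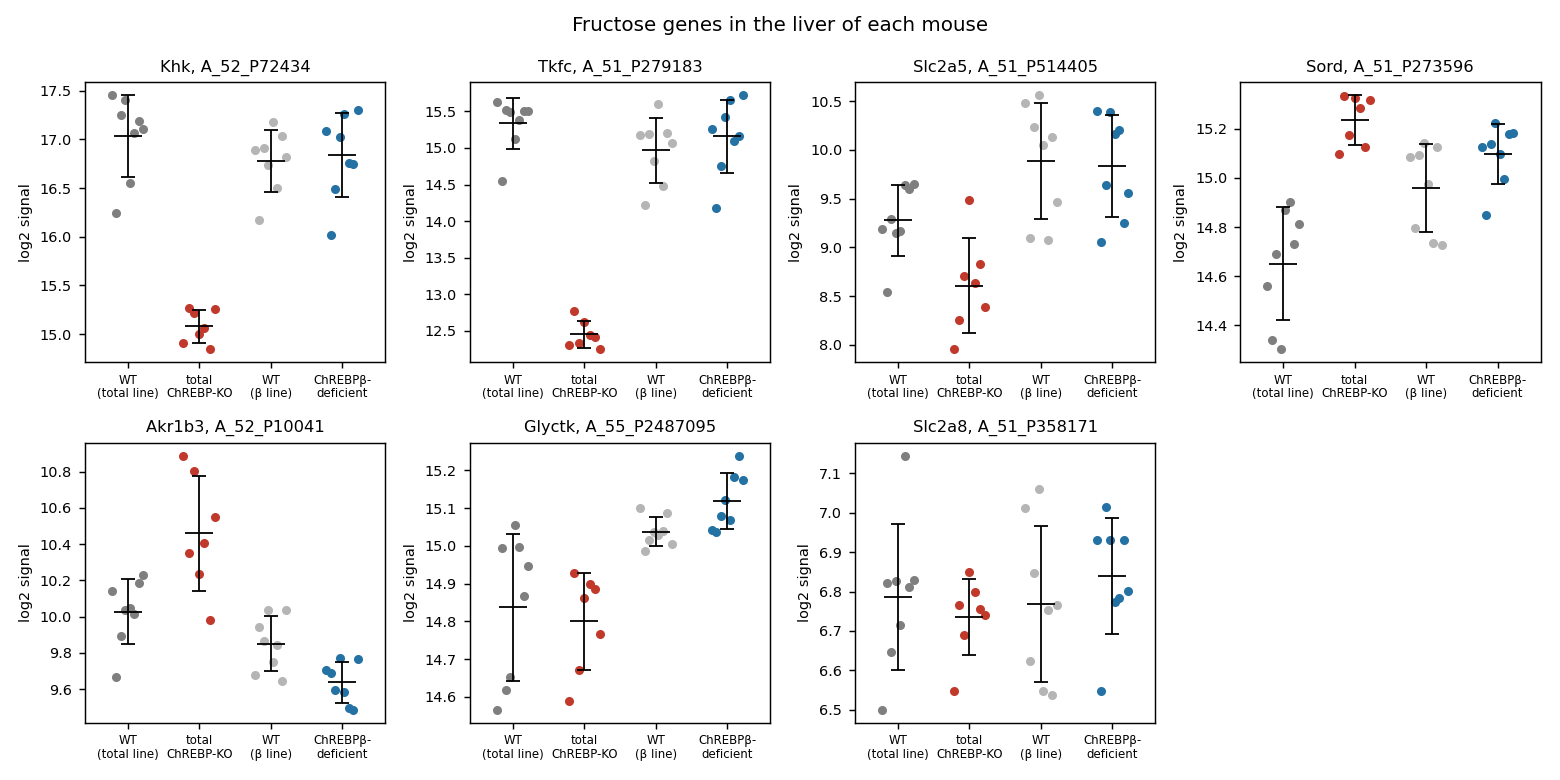
Log2 signal after quantile normalization of 1 probe per gene, the probe with the highest mean, except for Sord where the probe with the larger difference is drawn. Each point is a mouse, and bars show the mean and SD of 7 or 8 mice. The y axes differ between panels and do not start at 0. The total ChREBP-KO mice lie apart from the other 3 groups for Khk and Tkfc.

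Khk encodes ketohexokinase, which commits fructose to breakdown by adding a phosphate. For probe A_52_P72434 the log2 signal in WT littermates of the total line ran from 16.24 through a median of 17.15 to 17.45. In total ChREBP-KO mice it ran from 14.85 through 15.07 to 15.27. The groups did not overlap. The means were 15.08 ± 0.17 (SD, n = 7) and 17.03 ± 0.42 (SD, n = 8), a difference of -1.95 (SE 0.18, limma adjusted p = 6.89e-10), or 3.87-fold lower. It ranked as number 98 of the 36059 probes ordered from the most negative difference. The other probe, A_55_P2168643, fell by 2.05 on the log2 scale (SE 0.18, adjusted p = 4.30e-10), with total ChREBP-KO mice at 7.18 to 7.72 and WT littermates at 8.80 to 9.79. Both Khk probes therefore gave a similar fall at very different signal. Without the 4 arrays with high signal of Vil1 or Cela3b the differences were -2.05 and -2.07.

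Tkfc encodes triokinase, which phosphorylates the glyceraldehyde released from fructose 1-phosphate. Its probe A_51_P279183 read 14.54 to 15.63 in WT littermates, with a median of 15.49. In total ChREBP-KO mice it read 12.25 to 12.77, with a median of 12.41. No other member fell as far. The means were 12.45 ± 0.19 (SD, n = 7) and 15.34 ± 0.35 (SD, n = 8), a difference of -2.89 (SE 0.19, limma adjusted p = 2.72e-12), or 7.41-fold lower, and it ranked as number 38 in the same order. Without the 4 arrays named above the difference was -3.01. Probe A_55_P2734857, which lists only the cDNA clone, gave 6.61 to 7.77 in total ChREBP-KO mice and 7.005 to 7.78 in WT littermates. It differed by 0.03 (SE 0.15, adjusted p = 0.916), so the Tkfc probes disagreed. This probe met all quality criteria on 24 of the 31 arrays, and the other Tkfc probe on all 31.

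Slc2a5 encodes GLUT5, a fructose transporter. Probe A_51_P514405, at chr4:149517775-149517834 on mm9, read 8.55 to 9.65 in WT littermates of the total line, with a median of 9.24. Total ChREBP-KO mice read 7.95 to 9.48, with a median of 8.64. The groups overlapped, and 3 of 7 total ChREBP-KO mice lay below the lowest WT littermate. The difference was -0.67 (SE 0.25, limma adjusted p = 0.0377). The highest total ChREBP-KO mouse, at 9.48, was replicate 5, the liver with the highest signal of Vil1. Without that mouse the difference was -0.82 (adjusted p = 0.0116), and without all 4 arrays with signal of other tissues it was -0.83 (adjusted p = 0.0240). Of the 8 intestinal markers, Vil1, Fabp2, Apoa4 and Cdx1 had a probe above background, and Lct, Sis, Alpi and Cdx2 had none. Vil1 rose by 1.55 and Apoa4, which the liver also makes, fell by 2.41 in the mice lacking both isoforms (limma adjusted p = 0.00798 and 0.0004). Without replicate 5 the mean of Vil1 was 6.05 in the other 6 total ChREBP-KO mice against 5.16 in WT littermates, a difference of 0.89. The log2 of the summed signal of the 4 markers ranged from 14.06 to 16.59 in total ChREBP-KO mice. In WT littermates it ranged from 14.92 to 17.15. Over all arrays Fabp2 read at least 13.75, Vil1 at most 10.66 and Cdx1 at most 7.66. The sum therefore says little about Vil1 or Cdx1. The part of the 4 markers in the Slc2a5 difference was not tested. The call lay near the threshold. It was lost without total ChREBP-KO replicate 1, 2, 6 or 8 or WT replicate 3, 6, 7 or 8 (adjusted p = 0.0514 to 0.0972), and with slide as a fixed block the difference was -0.42 (adjusted p = 0.333).

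Slc2a8 encodes GLUT8, an intracellular hexose transporter. Its probe A_51_P358171 read 6.55 to 6.85 in total ChREBP-KO mice and 6.5 to 7.14 in WT littermates. The difference was -0.05 (SE 0.08, 95% interval -0.22 to 0.12, limma adjusted p = 0.695), so neither direction could be read from it. Glyctk encodes glycerate kinase, which phosphorylates glycerate made from glyceraldehyde. Its probe A_55_P2487095 read 14.59 to 14.93 in total ChREBP-KO mice and 14.56 to 15.06 in WT littermates, with a difference of -0.04 (SE 0.07, 95% interval -0.17 to 0.10, adjusted p = 0.723). The second Glyctk probe, A_55_P2920742, was the member left out. It was well above background on 8 of the 31 arrays, and its median intensity per group lay between 23.5 and 28.

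The polyol genes moved the other way from Khk and Tkfc. Sord encodes the dehydrogenase that turns sorbitol into fructose. Probe A_51_P273596, at chr2:122090499-122090558 on mm9, read 14.30 to 14.90 in WT littermates, with a median of 14.71, and 15.10 to 15.33 in total ChREBP-KO mice, with a median of 15.28. All 7 total ChREBP-KO mice lay above all 8 WT littermates. The difference was 0.59 (SE 0.09, limma adjusted p = 4.12e-06), or 1.5-fold higher. Probe A_55_P1953301 also separated the groups and was higher by 0.52 (SE 0.09, adjusted p = 5.28e-05). The differences were 0.56 and 0.51 without the 4 arrays with signal of other tissues.

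Akr1b3 encodes aldose reductase, which reduces glucose to sorbitol. Probe A_52_P10041 read 9.67 to 10.23 in WT littermates, with a median of 10.04, and 9.98 to 10.89 in total ChREBP-KO mice, with a median of 10.41. Of the 7 total ChREBP-KO mice, 6 lay above the highest WT littermate. The difference was 0.43 (SE 0.10, limma adjusted p = 0.00142), or 1.35-fold higher. Probe A_55_P2174953 was higher by 0.41 (SE 0.11, adjusted p = 0.0071), with 4 of 7 mice above every WT littermate. With slide as a fixed block the call of this probe was lost (0.41, adjusted p = 0.0533). The differences were 0.47 and 0.52 at the Akr1b3 probes without the 4 arrays with signal of other tissues.

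The differences of total ChREBP-KO mice were also taken within each scan day, on which 4 and 3 total ChREBP-KO mice met 4 and 4 WT littermates. Khk probe A_52_P72434 differed by -1.99 on the first day and by -1.92 on the second, and Tkfc probe A_51_P279183 by -2.79 and -3.01. These passed the test on each day. Sord probe A_51_P273596 differed by 0.76 and 0.41 and also passed on both days, whereas Sord probe A_55_P1953301 differed by 0.67 and 0.36 and passed on the first day only (adjusted p = 0.0666 on the second). Both Akr1b3 probes passed on the first day, at 0.64 and 0.57, and not on the second, at 0.19 and 0.22 (adjusted p = 0.371 and 0.423). Slc2a5 differed by -0.45 and -0.90 and passed on neither day alone (adjusted p = 0.455 and 0.0633).

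Lack of ChREBPβ alone left no member past the test. None of the 11 probes had an adjusted p under 0.05 (limma, lowest 0.989), against 1 of all 36059 probes, or 0.00277%. At an unadjusted p under 0.05 there was 1 member probe, Akr1b3 A_52_P10041, where 4.98% of all probes passed. The exact Mann-Whitney test with adjustment called 0 members. With 8 mice per group its smallest p is limited, and only 8 of 36059 probes had groups without overlap. After adjustment it could therefore hardly call any probe, and its result adds no support. The differences ran from -0.21 for that Akr1b3 probe to 0.19 for Tkfc, and the 95% intervals of all 11 probes lay within -0.54 and 0.57.

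The groups overlapped for every member, as they did for all but 0.0222% of all probes, 0.00832% higher and 0.0139% lower. Khk probe A_52_P72434 read 16.01 to 17.30 in ChREBPβ-deficient mice and 16.17 to 17.18 in their WT littermates, a difference of 0.06 (95% interval -0.29 to 0.40). Tkfc probe A_51_P279183 read 14.18 to 15.73 and 14.22 to 15.60, a difference of 0.19 (95% interval -0.19 to 0.57). A fall of the size seen in total ChREBP-KO mice lies outside both intervals. Slc2a5 read 9.05 to 10.40 and 9.07 to 10.56, with a difference of -0.05 (95% interval -0.54 to 0.43). Sord probe A_51_P273596 read 14.85 to 15.22 and 14.72 to 15.14, a difference of 0.14 (95% interval -0.03 to 0.31). Akr1b3 probe A_52_P10041 read 9.48 to 9.77 and 9.64 to 10.04, and its difference of -0.21 (95% interval -0.41 to -0.01, adjusted p = 0.989) had the opposite sign to that in total ChREBP-KO mice.

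**Figure D2:**
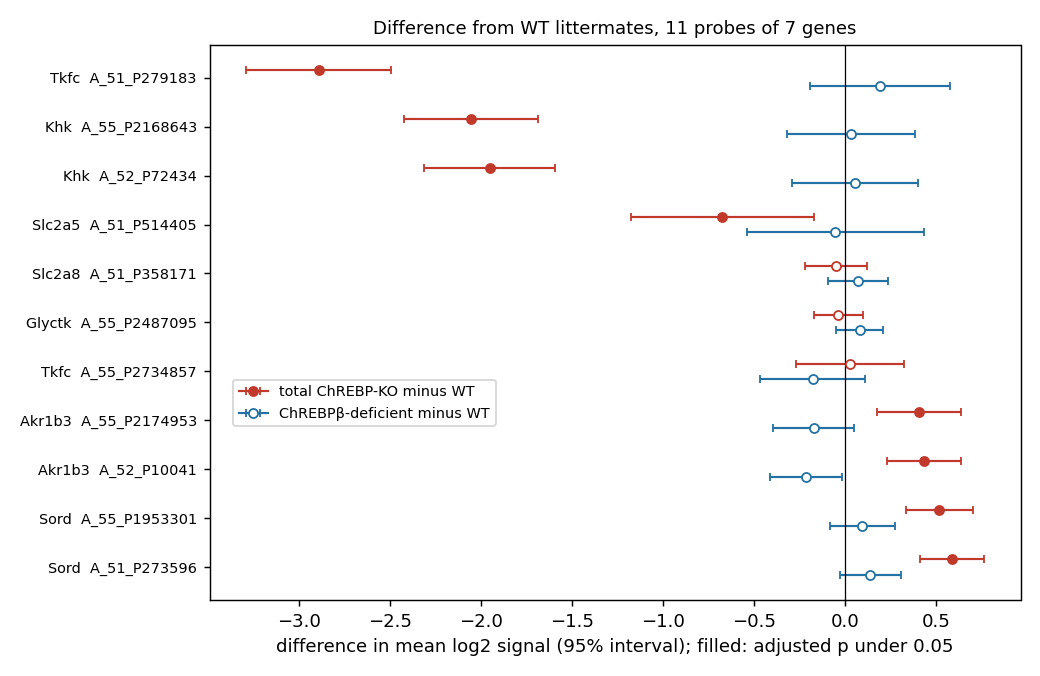
Difference in mean log2 signal between knockout mice and WT littermates of the same line for the 11 probes, with 95% intervals from limma. Filled points have an adjusted p under 0.05. Red marks total ChREBP-KO mice, with 8 filled points, and blue marks ChREBPβ-deficient mice, with none.

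The effects of total and β-selective loss were then compared directly, by the difference between both differences. It passed the test for 7 of 11 probes, 3 lower and 4 higher, against 15.1% of all probes, 8.08% lower and 7.02% higher. The excess was -3.08 (SE 0.27, limma adjusted p = 3.11e-09) for Tkfc probe A_51_P279183 and -2.01 and -2.09 for the Khk probes A_52_P72434 and A_55_P2168643 (adjusted p = 7.52e-07 and 6.00e-07). For the polyol genes it was 0.65 and 0.58 for the Akr1b3 probes and 0.45 and 0.42 for the Sord probes, with adjusted p from 0.00159 to 0.0199. With slide as a fixed block Akr1b3 probe A_55_P2174953 no longer passed (0.58, adjusted p = 0.0748), and without the 4 arrays with signal of other tissues the count was again 7, with the Sord probes at 0.42 and 0.41 (adjusted p = 0.0275 and 0.0495). Slc2a5 differed by -0.62 between the effects (SE 0.34, adjusted p = 0.243), so its fall in total ChREBP-KO mice was not shown to differ from its value in ChREBPβ-deficient mice. Slc2a8, Glyctk and the clone-based Tkfc probe did not pass either.

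The lines also differed among their WT littermates, which bears on any level set across lines. WT mice of the total line differed from WT mice of the β line by -0.31 and -0.28 at the Sord probes and by -0.20 for Glyctk (limma adjusted p = 0.0097, 0.0229 and 0.0275). These 3 of 11 probes passed, all lower, against 17% of all probes, 8.92% lower and 8.12% higher. The WT groups overlapped for all 11, and 1.89% of all probes did not overlap, 1.17% lower in the total line. Slc2a5 had means of 9.28 ± 0.37 (SD, n = 8) and 9.89 ± 0.60 (SD, n = 8), a difference of -0.61 that did not pass (adjusted p = 0.0744), although it passed at -0.72 without WT replicate 2 of the β line (adjusted p = 0.0377) and at -0.73 without replicate 6 (adjusted p = 0.0325). Without the 4 arrays with signal of other tissues, 3 of them WT mice of the total line, the Sord differences were -0.30 at both probes and Glyctk differed by -0.26 (adjusted p = 0.0357, 0.0504 and 0.0191), so the call of Sord probe A_55_P1953301 was lost. The rise of Sord in total ChREBP-KO mice, to a mean of 15.24 ± 0.10 (SD, n = 7) at probe A_51_P273596, started from the lowest group. The WT mice of the β line stood at 14.96 ± 0.18 (SD, n = 8) and ChREBPβ-deficient mice at 15.10 ± 0.12 (SD, n = 8). For Khk and Tkfc the order of the 4 group means was WT of the total line, ChREBPβ-deficient, WT of the β line and total ChREBP-KO, where the test of ChREBPβ-deficient mice against their littermates and that between the WT groups did not pass. For Slc2a5 the order was WT of the β line, ChREBPβ-deficient, WT of the total line and total ChREBP-KO.

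Khk and Tkfc rose and fell together from mouse to mouse. After each group's mean was removed, their signals had a Pearson correlation of 0.91 and a Spearman correlation of 0.85 over the 31 mice (permutation within groups, both p = 1e-05, the smallest that 100000 permutations can give, and both 0.00021 after adjustment over the 21 pairs of members). Without the 2 mice farthest from the median of Khk the Pearson correlation was 0.86, and it was 0.95 and 0.81 on the single scan days. Within groups it was 0.95 in WT littermates of the total line, 0.98 in those of the β line and 0.99 in ChREBPβ-deficient mice (n = 8 each, as a description). It was 0.14 in total ChREBP-KO mice (n = 7). That this correlation differs between groups was not tested. The SD of Khk was 0.17 in total ChREBP-KO mice and 0.42 in their WT littermates, but the spread of the groups was not told apart (two-sided exact permutation of absolute deviations from the medians, p = 0.290 for Khk and 0.760 for Tkfc).

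**Figure D3:**
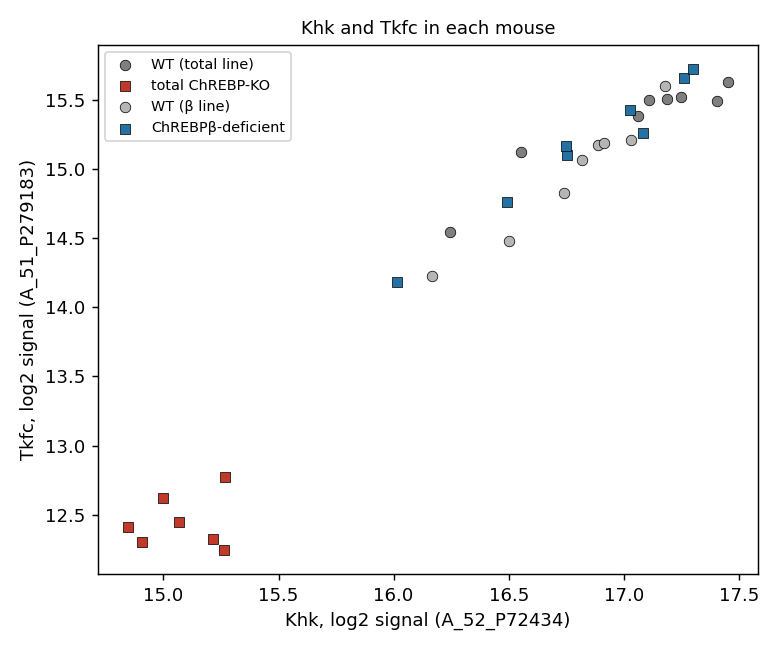
Tkfc against Khk in the 31 mice, as log2 signal of probes A_51_P279183 and A_52_P72434. Each point is a mouse, circles are WT littermates and squares are knockout mice. In 3 groups the points lie along 1 line, and the total ChREBP-KO mice form a separate cloud at lower values of both genes.

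Slc2a5 followed this pair less closely. Its Pearson correlation after removal of group means was 0.58 with Tkfc and 0.50 with Khk, and 0.64 with Sord (permutation p = 0.00179, 0.00428 and 0.00051, adjusted p = 0.0094, 0.018 and 0.00357). The Spearman correlations were 0.43, 0.34 and 0.64 (permutation p = 0.0265, 0.0748 and 0.00052), of which that with Sord alone passed after adjustment. Without the 2 mice farthest from the median of the first gene of each pair the Pearson values were 0.44, 0.33 and 0.57. In all, 6 of the 21 pairs of members passed by Pearson correlation after adjustment and 3 by Spearman correlation. These 3 passed by both and were Khk with Tkfc, Slc2a5 with Sord, and Glyctk with Sord (Pearson 0.54, Spearman 0.58, permutation p = 0.00045 and 0.00027, adjusted p = 0.00357 and 0.00284). At Khk probe A_52_P72434 and Tkfc probe A_51_P279183, replicate 2 had the lowest signal in 3 of the groups, at 16.24, 16.17 and 16.01 for Khk in WT littermates of the total line, WT littermates of the β line and ChREBPβ-deficient mice. In total ChREBP-KO mice replicate 2 had the highest signal at these probes, 15.27 and 12.77. At Khk probe A_55_P2168643 it was lowest in the same 3 groups and number 4 of 7 in total ChREBP-KO mice, and at Tkfc probe A_55_P2734857 it was lowest in ChREBPβ-deficient mice only. The replicate numbers come from the labels and do not name a shared litter.

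The genes most like Khk, Tkfc and Slc2a5 across mice were sought among all gene names. The measure was the Pearson correlation over 31 mice after removal of group means. Each of these members was taken by its probe with the highest mean, and each other gene by its probe that correlated best. For Khk they were Pklr, which encodes liver pyruvate kinase (0.95), a non-coding transcript on chromosome 13 (0.93) and Lrrc28 (0.93). Pklr itself had a difference of -3.99 after loss of both isoforms (limma adjusted p = 4.35e-12). For Tkfc they were Khk (0.91), Slc9a5 (0.89) and the same non-coding transcript (0.89). For Slc2a5 they were Bbox1, an enzyme of carnitine synthesis (0.87), Gys2, which encodes liver glycogen synthase (0.81), and Lmbrd1 (0.79). Bbox1 differed by 0.01 in total ChREBP-KO mice (adjusted p = 0.968), unlike Slc2a5. The mice shared slides and scan days, and these values are a description.

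Partner genes of fructose metabolism were taken from 5 lists with 35 names, of which 29 had a probe among those kept. In total ChREBP-KO mice 8 of the 29 genes had a probe that was higher, 7 had a probe that was lower and 14 had neither. Counted by probe, 22 of their 55 passed, 13 higher and 9 lower, where 29.1% of all probes passed, 14.5% higher and 14.6% lower. A gene was counted when any of its probes passed. The counts of genes, here and in each list below, therefore cannot be set against that share of probes. In ChREBPβ-deficient mice none of the 55 partner probes passed (limma). The exact Mann-Whitney test called 0 genes, which adds no support for the reason given above. At their probes with the highest mean, Slc2a2 differed by 0.16 and Gckr by 0.15.

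**Figure D4:**
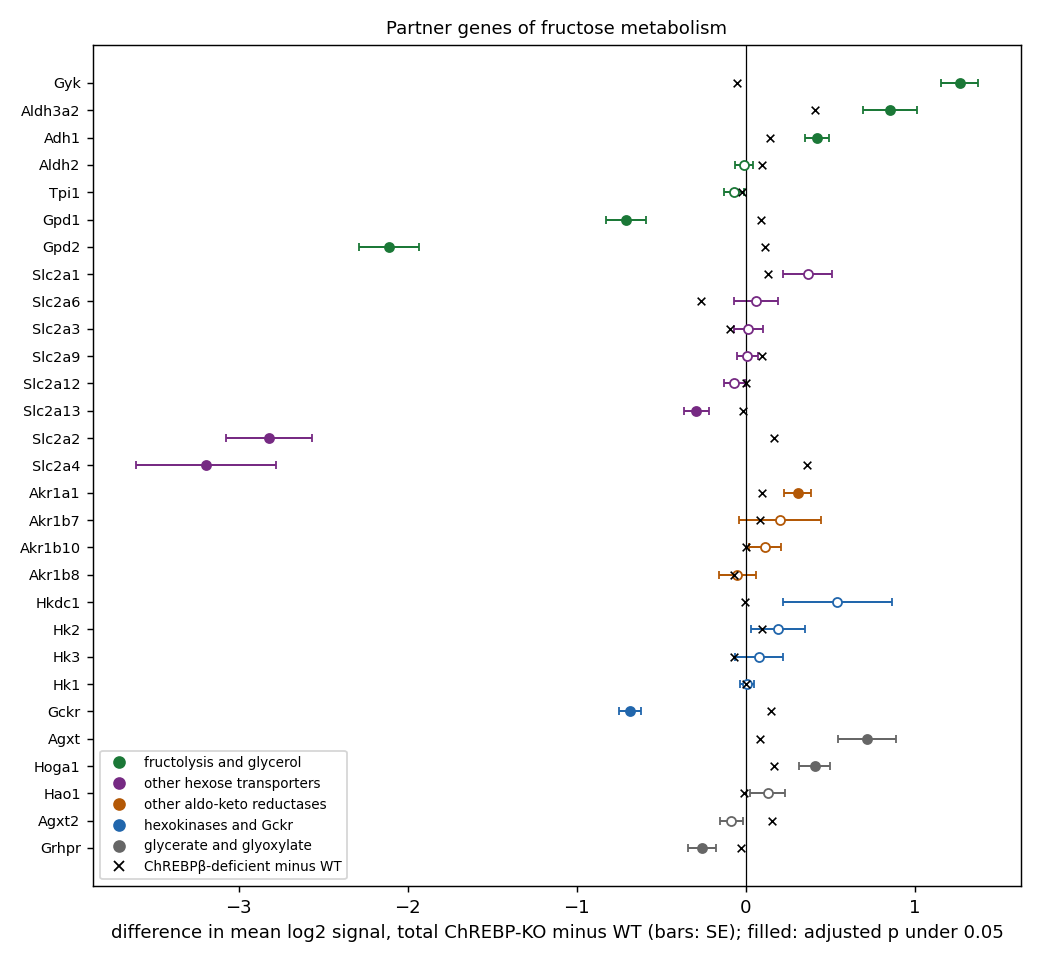
Difference in mean log2 signal between total ChREBP-KO mice and WT littermates for the 29 partner genes, each by its probe with the highest mean, with SE as bars and colors for the 5 lists. Filled points have an adjusted p under 0.05, and crosses give the difference in ChREBPβ-deficient mice. Slc2a9 and Hk1 are open because the drawn probe did not pass, although another of their probes did, and Slc2a4, Slc2a2 and Gpd2 lie below -2.

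Among 7 measured genes of triose and glycerol handling, 3 rose and 2 fell, with a median over 21 probes of 0.05. Gpd2 and Gpd1, the mitochondrial and cytosolic glycerol phosphate dehydrogenases, fell by 2.11 and 0.71 on the log2 scale (limma adjusted p = 2.69e-10 and 2.83e-05). Gyk, which encodes glycerol kinase, rose by 1.27 (adjusted p = 4.45e-10). Aldh3a2, a fatty aldehyde dehydrogenase, and Adh1, an alcohol dehydrogenase, rose by 0.85 and 0.42 (adjusted p = 0.000151 and 4.57e-05). The other 2 did not pass. WT mice of the total line differed from WT mice of the β line by -0.95 for Aldh3a2 and -0.41 for Gyk (adjusted p = 8.25e-05 and 0.00737). For Adh1 they differed by 0.01. Aldh3a2 averaged 13.22 in total ChREBP-KO mice and 13.32 in WT mice of the β line. The difference between both effects did not pass for Aldh3a2 or Adh1 (0.44 and 0.28, adjusted p = 0.200 and 0.0583).

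Among 8 measured hexose transporters beside Slc2a5 and Slc2a8, 3 fell and 1 had a higher probe, with a median over 10 probes of -0.01. Slc2a2, which encodes GLUT2, the main hexose transporter of hepatocytes and a carrier of fructose, fell from 11.96 ± 0.40 (SD, n = 8) to 9.14 ± 0.88 (SD, n = 7), a difference of -2.82 (SE 0.25, limma adjusted p = 6.14e-10). Slc2a4, the insulin-responsive GLUT4, fell by 3.19 (adjusted p = 6.25e-07) and Slc2a13, an inositol transporter, by 0.29 (adjusted p = 0.00328). Slc2a9, a urate transporter, was higher by 0.68 at probe A_55_P2716122 (adjusted p = 3.92e-06), whereas its brightest probe differed by 0.01. Another 2 listed transporters had no probe kept.

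Of 5 measured genes of hexose phosphorylation, 1 had a higher and 1 a lower probe, with a median over 9 probes of 0.05. Gckr, whose product is a regulatory protein that binds fructose phosphates, fell by 0.69 (SE 0.07, limma adjusted p = 3.00e-09). Hk1 was higher by 0.22 at 1 of its 4 probes, and its brightest probe differed by 0.01. Of 4 measured aldo-keto reductases beside Akr1b3, Akr1a1 rose by 0.31 (adjusted p = 0.00337), and the other 3 did not pass. Their median over 6 probes was 0.15. Of 5 measured genes of glycerate and glyoxylate handling, Agxt and Hoga1 rose by 0.72 and 0.41 (adjusted p = 0.00174 and 0.000898). Grhpr fell by 0.26 at its brightest probe (adjusted p = 0.0176). Its probes A_51_P427432 and A_55_P2087647 did not pass (-0.20 for both, adjusted p = 0.0564 and 0.168). The median over 9 probes was -0.08. For Hoga1, WT mice of the total line differed from WT mice of the β line by -0.55 (adjusted p = 6.2e-05). Hoga1 averaged 12.01 in total ChREBP-KO mice and 12.15 in WT mice of the β line. Its difference between both effects did not pass (0.24, adjusted p = 0.210). Without the 4 arrays with signal of other tissues 14 partner genes were called, and Grhpr was no longer among them (adjusted p = 0.0889). With slide as a fixed block Agxt was not called (0.48, adjusted p = 0.0744). On the first and second scan day alone, Akr1a1 differed by 0.55 and 0.062, Hoga1 by 0.60 and 0.19, Adh1 by 0.58 and 0.24 and Aldh3a2 by 1.17 and 0.48, and none of these passed on the second day (adjusted p = 0.694, 0.415, 0.141 and 0.136). Agxt, Gpd1, Slc2a13 and Grhpr did not pass on the first day (adjusted p = 0.112, 0.0645, 0.139 and 0.306).

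Markers of other cell types were compared in total ChREBP-KO mice and WT littermates by the probe with the highest mean. Of 5 measured exocrine pancreas markers, Cela3b and Ctrb1 were lower and none was higher. The SD of Cela3b and Ctrb1 was 2.07 and 1.15 in WT littermates, and 0.11 and 0.16 in total ChREBP-KO mice. The WT littermates included replicates 2, 7 and 8 with the high Cela3b signal given above. Of 8 hepatocyte markers 3 were higher, of 5 stellate cell markers 3, and of 5 bile duct and 5 red cell markers 1 each. Over all probes, 14.5% were higher and 14.6% lower. None of 5 adipocyte, 6 Kupffer cell and 6 endothelial markers passed. Their part in the members' differences was not tested, beyond the values without the 4 arrays given above.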

How the data were processed

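Liver RNA of 31 mice was measured on one-color arrays. The authors scanned them with Agilent Feature Extraction 10.10.1.1, and the deposited scanner files hold the median spot intensity. The deposited table of log2 values was normalized by quantiles by the authors and held 36057 probes. Here log2 median intensities without background subtraction were used. Spots of full quality (found, significant and well above background) on 26 arrays, or on 6 arrays of 1 group, were kept, quantiles were equalized over 31 arrays and spots of 1 probe were summarized by their median. limma 3.58.1 in R 4.3.3 was fitted over the 4 groups, with Benjamini-Hochberg adjustment over 36059 probes and a threshold of 0.05. Differences are of log2 means, and the number of arrays limits their precision. All adjusted p-values of differences are from limma unless another test is named. Calculations were tested on simulated data. Named genes were the members, the called genes of the partner lists, Slc2a2 and Gckr in any case, and the 3 genes most like Khk, Tkfc and Slc2a5. The members and lists were chosen with earlier results of these data known. Alternatives changed the signal, normalization, filter, blocks, test and arrays. Some listed partner genes are not reported here. Total ChREBP-KO replicate 3 was not analysed here.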

Additional observations from a re-analysis of the deposited data

Results flagged for a closer look

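WT littermate replicate 2 of the total line stood apart from the other 7 mice of its group for 2 genes. Its Slc2a5 signal was 8.55 and the nearest mouse had 9.15, a gap of 0.549 of the group's range. Its Tkfc signal at probe A_51_P279183 was 14.54 and the nearest mouse had 15.12, a gap of 0.530 of the range. The limit for 8 mice is 0.526, and 2 of 44 groups tested passed it, where chance gives about 1 in 20. The same liver had the highest Cela3b signal, at 10.41, and the part of this in either value was not tested.

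The effect of total loss differed from that of ChREBPβ loss, by the limma test of the difference between both effects, for 7 member probes. The excess was -3.08 for Tkfc, -2.01 and -2.09 for the Khk probes, 0.45 and 0.42 for the Sord probes and 0.65 and 0.58 for the Akr1b3 probes. Of the 29 partner genes, each by its probe with the highest mean, 6 passed, where 15.1% of all probes passed. They were Slc2a4 at -3.56, Slc2a2 at -2.99, Gpd2 at -2.23, Gckr at -0.84, Gpd1 at -0.80 and Gyk at 1.32.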

How the results depend on the processing

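Over 48 alternatives, 31 of which left out 1 mouse, no member that passed the test in total ChREBP-KO mice changed direction. Member probes called there numbered 7 to 8 when 1 mouse was left out, 4 on scan day 2 alone and 5 with a fold change of at least 1.5 as well. Slc2a5 and Akr1b3 probe A_55_P2174953 missed the threshold by the exact Mann-Whitney test (adjusted p = 0.0738 for both). Partner genes numbered 13 to 17 without 1 mouse and 9 with the fold limit. For the difference between both effects there were 7 member probes whichever mouse was left out, 3 on scan day 2 and 4 with the fold limit. Between the WT groups there were 1 to 4 without 1 mouse, 1 with slide as a fixed block, 1 with separate fits, and 0 on scan day 2, by Mann-Whitney and with the fold limit. The causes of these changes were not tested. A single day holds fewer mice, and the fold limit is a stricter call by definition. Some estimates also differed between the days, as given above. No member was called in ChREBPβ-deficient mice under any alternative.

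Values that changed sign had not passed the test. When median signals were scaled to their 75th percentile, Glyctk in ChREBPβ-deficient mice was -0.0032. With the slide block Slc2a8 and Khk probe A_55_P2168643 there were -0.0013 and -0.049. On scan day 1, ChREBPβ-deficient mice gave -0.17 for Tkfc and -0.24 and -0.13 for the Khk probes, total ChREBP-KO mice gave 0.014 for Slc2a8 and 0.055 for Glyctk, and the WT groups differed by -0.071 for Slc2a8. On scan day 2 Slc2a5 in ChREBPβ-deficient mice was 0.13. Without the 4 arrays with signal of other tissues, an alternative chosen after seeing the data, Glyctk in total ChREBP-KO mice was 0.012 and Slc2a8 between WT groups -0.0020. With 1 mouse left out, Tkfc probe A_55_P2734857 ran from -0.046 to 0.15 in total ChREBP-KO mice. In ChREBPβ-deficient mice Slc2a5 ran from -0.17 to 0.058 and the Khk probes from -0.032 to 0.17 and from -0.054 to 0.15. Slc2a8 between WT groups ran from -0.033 to 0.060.

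With the replicate number as a block, 8 member probes and 15 partner genes were called in total ChREBP-KO mice, and Tkfc probe A_55_P2734857 turned to -0.0078. Same-numbered mice correlated by -0.21 to 0.24 in the total line, over 0.1 in 2 of 7 pairs. In the β line they correlated by -0.16 to 0.53, over 0.1 in 6 of 8 pairs. The knockout mouse correlated best with the WT mouse of its own number in 1 of 7 and 4 of 8 pairs. Whether same-numbered mice of the β line share a factor was not tested. The labels name no shared litter, and the main fit did not take the numbers as a pairing.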
